A study of Glycine max with 6 samples.

Results

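The genes described here are those of sulfate transport and sulfur assimilation in soybean (Glycine max) roots. Members were 70 of the 48667 genes listed in the 6 libraries. They were found by words in the gene descriptions of the deposited files (sulfate transporter, ATP sulfurylase, adenylylsulfate reductase, adenylylsulfate kinase, sulfite reductase, serine acetyltransferase, cysteine synthase, O-acetylserine), and the 8 GmSULTR genes that the study names by identifier were all among them. Of the 70, 30 were sulfate transporter (SULTR) genes, with 6 in group 1, 9 in group 2, 13 in group 3 and 2 in group 4. The other 40 were assimilation genes, and 4 of the 70 were predicted by the authors' assembly and have no soybean locus name. In a soybean locus name, the number before the letter G is the chromosome.

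Control roots came from soybean plants grown for 30 days in hydroponic culture at pH 5.8, and acid-treated roots from plants grown in the same way at pH 4.2, with 3 libraries per pH. Each library held the roots of 2 plants, so a library is a pool and p-values measure the spread between such pools. The labels name the genotype YC03-3 and the study's methods name Huachun 6. The acidity was kept daily with dilute sulfuric acid or potassium hydroxide, so the sulfate supplied with the acid and the acidity itself cannot be told apart in a comparison of sulfate transporter genes.

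Plants take up sulfate from the soil solution through proton-coupled transporters. In Arabidopsis, SULTR group 1 holds high-affinity transporters, among them those of root uptake, and group 2 low-affinity transporters of the vasculature. Group 3 is a mixed set that includes plastid transporters and partners of group 2, and group 4 holds transporters that release sulfate from the vacuole. Inside the cell, ATP sulfurylase activates sulfate to adenosine 5'-phosphosulfate (APS), APS reductase makes sulfite, sulfite reductase makes sulfide, and cysteine synthase joins sulfide to the O-acetylserine made by serine acetyltransferase. APS kinase draws APS away to sulfated compounds.

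The study designed primer pairs for 6 of the SULTR genes. Shown here are the pairs for the 2 called group 3 genes, for the other SULTR3.5 gene and for a SULTR2.1 gene that was not called. GmSULTR2.1-3, the gene called lower, was not among the 6. Whether a pair tells close relatives apart was not checked. Each is written from its 5′ end, and the qRT-PCR measurements made with them were not analysed here.
GmSULTR3.1-2 (Glyma.02G145100) forward: tgctacctcacaacaggaccat
GmSULTR3.1-2 (Glyma.02G145100) reverse: ccacgccaatgtatgcactc
GmSULTR3.5-1 (Glyma.09G188700) forward: accatacaaaccgtggcaga
GmSULTR3.5-1 (Glyma.09G188700) reverse: gttcccacctaatctcgtgtcta
GmSULTR3.5-2 (Glyma.07G088200) forward: ccctcattggcctttattccag
GmSULTR3.5-2 (Glyma.07G088200) reverse: cccaaacaagcctggaaaaca
GmSULTR2.1-1 (Glyma.11G238400) forward: gaagctgttctggttggcat
GmSULTR2.1-1 (Glyma.11G238400) reverse: cagcaatagactcagtaagggca

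Library totals ranged from 9137226 to 9358750 expected counts, and 3 counts in a library were worth 0.312 to 0.34 CPM (counts scaled to the size of the library). On the first principal component of all genes, which held 42.9% of the variance, control replicate 2 (-11.5) lay nearer to acid replicate 1 (-23.1) than to control replicates 1 (60.1) and 3 (103). Counts of called genes are therefore also given without it. All 11 genes described as Casparian strip membrane proteins, which mark the root endodermis, were above 1 CPM, with a summed level of 30.4 to 96.0 CPM in the control libraries and 78.7 to 98.5 CPM in the acid libraries. The lowest of these sums was in control replicate 1. Of 37 genes described as chlorophyll a-b binding proteins or the small chain of ribulose bisphosphate carboxylase, which mark green tissue, 32 were above 1 CPM, with sums of 1290 to 2100 CPM in the control libraries and 1540 to 2360 CPM in the acid libraries. The word leghemoglobin, searched for as a mark of nodules, found only 2 genes described as leghemoglobin reductases, which are no nodule markers, so nodules were not checked. The part of these markers in the results was not tested. In whole roots, fewer cells of a type and less RNA per cell cannot be told apart.

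Acid-treated and control roots were compared to find which sulfur genes differ between the pH-treatments. A gene was called when edgeR's adjusted p-value, over all genes tested, was under 0.05 and the change at least 2-fold. Of the 70 members, 58 had enough counts for the test, and 2 of them were called higher and 1 lower at pH 4.2. Of all 33490 genes tested, 0.227% were called higher and 0.331% lower. With the unadjusted p-value in its place, 8 members were called higher and 3 lower, beside 2.45% and 4.03% of all genes. Among members that the study does not name, these were 3 higher and 0 lower. The 12 members without a test were low, with a mean of at most 2.14 CPM at either pH. All 3 called members were SULTR genes and were among the 8 GmSULTR genes that the study chose on these same libraries, so their direction is not independent evidence. Of the 50 tested members that the study does not name, edgeR called 0, DESeq2 called 2 and limma called 0. An unadjusted edgeR p-value under 0.05 was found for 7 of the 50, beside 11.8% of all genes, so the count is near that share.

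The counts of called members rested on single libraries. Without control replicate 2, 6 members were called higher and 3 lower, while 1122 of all genes were called instead of 187. That library was singled out on these same data for lying nearest to the acid libraries. Calls without it, here and below, are therefore no separate support. Without acid replicate 1, acid replicate 2 or control replicate 3, 0 members were called, without acid replicate 3 there was 1 called higher, and without control replicate 1 there was 1 called lower. Calls over all genes fell in these fits too, to 30, 7 and 69 without acid replicate 1, acid replicate 2 and control replicate 3, to 83 without acid replicate 3 and to 95 without control replicate 1. DESeq2 called 7 members higher and 3 lower, beside 1.22% and 1.55% of the 38245 genes to which it gave an adjusted p-value. Of these members, 5 and 3 were GmSULTR genes. The study chose those with DESeq2 on these same libraries, so their part of the counts is no separate evidence.

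The medians of the SULTR groups lay on both sides of 0. The median log2 fold change of acid-treated over control roots was -0.38 over the 4 tested genes of group 1, -0.55 over the 7 of group 2, 0.73 over the 12 of group 3 and -0.29 over the 2 of group 4, beside a median of 0.0 over all genes tested. The group 3 median was not stable, at 0.09 with DESeq2, 0.10 without a filter on low counts and -0.10 when groups were read from the first number of the description. It stood between subgroups that lay far apart, since its 12 log2 fold changes ran from -0.99 to 4.78. Over the 25 tested SULTR genes, the 3 acid libraries were all above the 3 control libraries for 5 genes and all below for 7. The 5 were the GmSULTR3 genes, and 3 of the 7 the GmSULTR2.1 genes, that the study chose on these same libraries. These counts and the medians of groups 2 and 3 are therefore a description. Of all genes tested, 7.17% had all acid libraries above and 9.25% all below.

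**Figure D1:**
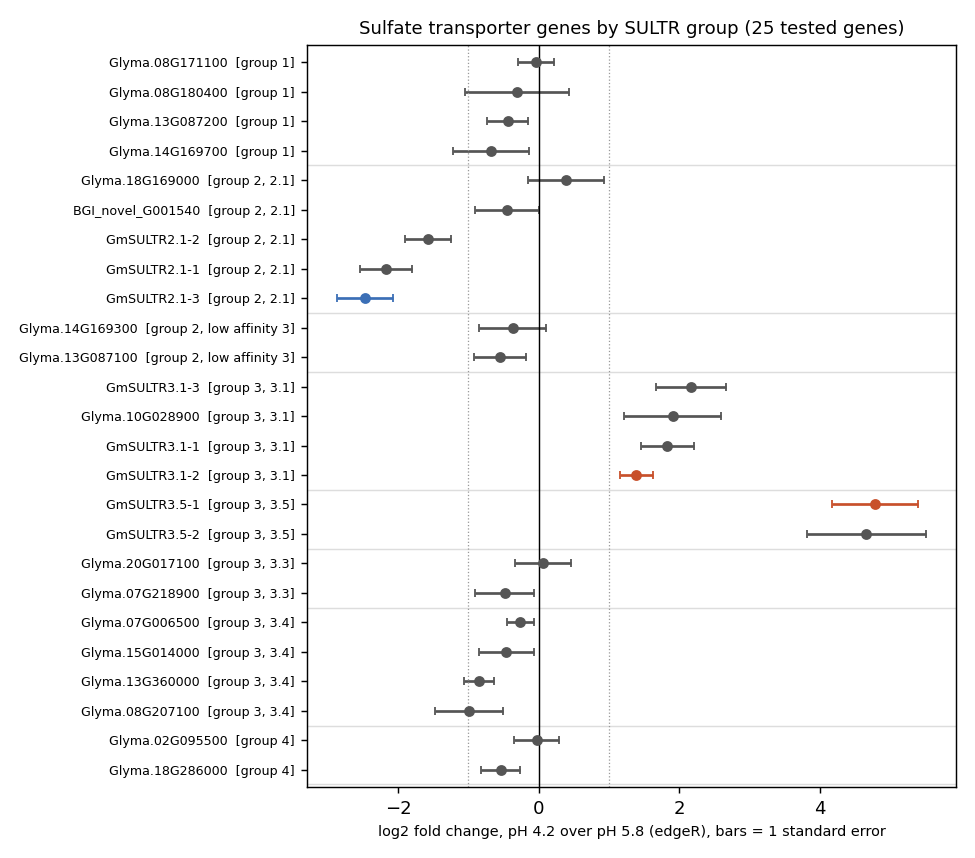
Log2 fold change of acid-treated over control roots (x axis, edgeR) for the 25 tested SULTR genes, grouped by SULTR group and subgroup on the y axis. Points are estimates, bars are 1 standard error, dotted lines mark a 2-fold change, and the colored points are the 3 called genes (2 higher, 1 lower). The 4 SULTR3.1 and 2 SULTR3.5 genes lie between 1.39 and 4.78, and the 4 SULTR3.4 genes between -0.99 and -0.26.

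Summed over its genes, the level of group 3 was 41.9, 67.0 and 57.9 FPKM (fragments per kilobase of transcript, scaled to the size of the library, which allows levels to be compared between genes) in control replicates 1 to 3 and 175, 154 and 145 FPKM in acid replicates 1 to 3. The groups of libraries did not overlap, and the ratio of means was 2.84. Group 2 went the other way, with 24.9, 17.8 and 28.7 FPKM in control and 8.15, 11.4 and 10.2 FPKM in acid-treated roots. The share of group 3 in the summed level of all 30 SULTR genes was 37.1% to 44.0% in control and 71.6% to 73.8% in acid-treated roots, and that of group 2 was 11.7% to 23% and 3.43% to 5.45%. The sum of group 3 over that of group 2 was 1.68, 3.76 and 2.01 in control and 21.5, 13.5 and 14.3 in acid-treated roots. The 8 genes the study chose are part of these sums, which are therefore a description.

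Groups 1 and 4 overlapped between the pH-treatments. Group 1 summed to 16.7, 27.9 and 15.2 FPKM in control and 14.5, 16.4 and 19.2 FPKM in acid-treated roots. Group 4 summed to 25, 39.7 and 54.3 FPKM in control and 39.7, 28.0 and 28.2 FPKM in acid-treated roots. All 30 SULTR genes together summed to 109, 152 and 156 FPKM in control and 238, 210 and 202 FPKM in acid-treated roots, without overlap. The genes the study chose on these same libraries are part of this total, which is therefore a description. Without SULTR3.1 and SULTR3.5, the other 7 genes of group 3 summed to 30.1, 25.7 and 28.0 FPKM in control roots. In acid-treated roots they summed to 21.7, 18.5 and 19.9 FPKM, all lower. Group 2 was lower too, so the higher total does not stand for SULTR genes in general.

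**Figure D2:**
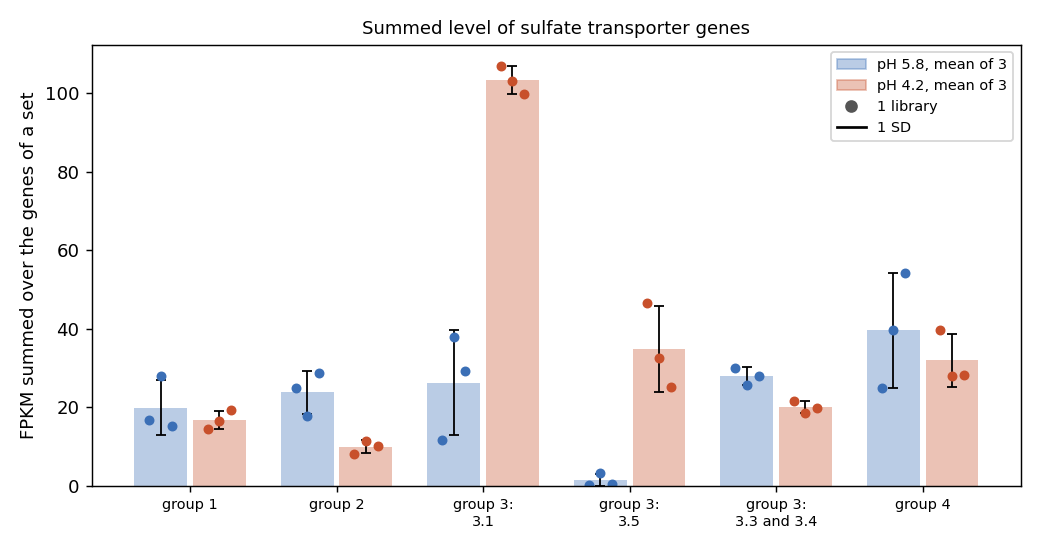
FPKM summed over the genes of each SULTR set (y axis) in control roots at pH 5.8 and acid-treated roots at pH 4.2. Points are single libraries, bars are means of 3 and error bars are 1 SD, drawn down to 0 at most. The mean of SULTR3.1 was 26.3 FPKM in control and 103 FPKM in acid-treated roots, and that of SULTR3.5 was 1.35 and 34.8 FPKM, while groups 1 and 4 overlapped.

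The order of single SULTR genes by level also differed. In control roots the highest mean levels were those of both group 4 genes, Glyma.18G286000 (21.1 ± 8.11 FPKM, SD, n = 3) and Glyma.02G095500 (18.6 ± 6.79 FPKM), followed by GmSULTR3.1-3 (mean 16.0 FPKM, 4.79 to 24.1) and the SULTR3.4 gene Glyma.07G006500 (13.5 ± 0.131 FPKM). Within 1 SD these 4 neighbours overlapped. Glyma.18G286000 was still above Glyma.07G006500 in every control library (13.9, 19.5 and 29.8 against 13.5, 13.3 and 13.5 FPKM). Counts were not whole in 4 libraries for Glyma.18G286000 and in 1 for Glyma.02G095500, so some of their reads were shared with other genes. In acid-treated roots GmSULTR3.1-3 came first (70.4 ± 3.79 FPKM), with 32.5% of the summed SULTR mean, against 11.5% in control. It was followed by GmSULTR3.5-2 (29.7 ± 8.88 FPKM), GmSULTR3.1-1 (18.3 ± 4.09 FPKM) and Glyma.02G095500 (17.8 ± 4.83 FPKM), of which the last 2 did not differ beyond their spread.

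SULTR group 1, the high-affinity transporters, had no called gene by edgeR or DESeq2. Of its tested genes, 2 are described as sulfate transporter 1.3-like, so the group does not stand for root uptake as a whole. Its 4 tested genes had log2 fold changes of -0.68 to -0.04, and none had an unadjusted edgeR p-value under 0.05. The highest by level was Glyma.08G171100, at 21.8, 11.8 and 14.6 CPM in control and 14.6, 18.1 and 14.1 CPM in acid-treated roots. Its log2 fold change was -0.04 with a 95% interval of -0.64 to 0.57. The second, Glyma.08G180400, varied widely among libraries, with 3.36, 30.8 and 7.60 CPM in control and 8.49, 5.94 and 19.1 CPM in acid-treated roots, and its estimate of -0.31 became 1.03 without control replicate 2. The lowest estimate, -0.68 ± 0.54 (SE), belonged to Glyma.14G169700 at a mean of 1.99 CPM in control. A gene that is assigned to group 1 by its KEGG term, but whose description does not name a sulfate transporter, Glyma.15G052000, was at 9.66, 115 and 63.3 CPM in control and 67.5, 36.4 and 81.8 CPM in acid-treated roots. It was more abundant than any of the 6 members, with a mean of 35.1 FPKM in control, and also overlapped.

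In SULTR group 2, the low-affinity transporters of the vasculature, 3 of the 5 tested SULTR2.1 genes had all acid libraries below all control libraries. These 3 are the genes that the study chose on these same libraries. Of all genes tested, 9.25% had all acid libraries below. GmSULTR2.1-3 (Glyma.18G019000) was at 6.95, 17.6 and 17.7 CPM in control and 2.26, 2.97 and 2.34 CPM in acid-treated roots. It was called lower, 5.55-fold, with a log2 fold change of -2.47 ± 0.40 (SE) and an adjusted p of 0.0432. Its counts were not whole in 2 libraries, so some reads were shared with other genes. In leave-one-out fits its adjusted p ran from 0.0258 to 0.226, and the call held only without control replicate 1 or 2. With limma the adjusted p was 0.0808 at a pseudocount of 1 and 0.0744 at 0.1, so the call was lost.

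The 2 other GmSULTR2.1 genes missed the threshold of edgeR. GmSULTR2.1-1 (Glyma.11G238400) was at 6.84, 6.44 and 10.7 CPM in control and 2.49, 1.49 and 1.34 CPM in acid-treated roots, a log2 fold change of -2.17 ± 0.37 (SE, adjusted p = 0.0532). GmSULTR2.1-2 (Glyma.08G138600) was at 11.6, 5.69 and 9.47 CPM in control and 2.72, 3.4 and 2.89 CPM in acid-treated roots, a log2 fold change of -1.57 ± 0.33 (SE, adjusted p = 0.0962). Both sat below every control library in acid-treated roots. DESeq2 called both lower, but the study chose them with DESeq2 on these same libraries, so that call is no separate evidence. The remaining 2 tested SULTR2.1 genes were low and overlapped, and the counts of each were not whole in 4 libraries. The predicted gene BGI_novel_G001540 had a log2 fold change of -0.45 ± 0.45, and Glyma.18G169000 one of 0.39 ± 0.54, the only positive value in the group. As sets, the 6 SULTR2.1 genes summed to 21.8, 15.8 and 25.5 FPKM in control and 6.30, 8.60 and 8.26 FPKM in acid-treated roots.

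**Figure D3:**
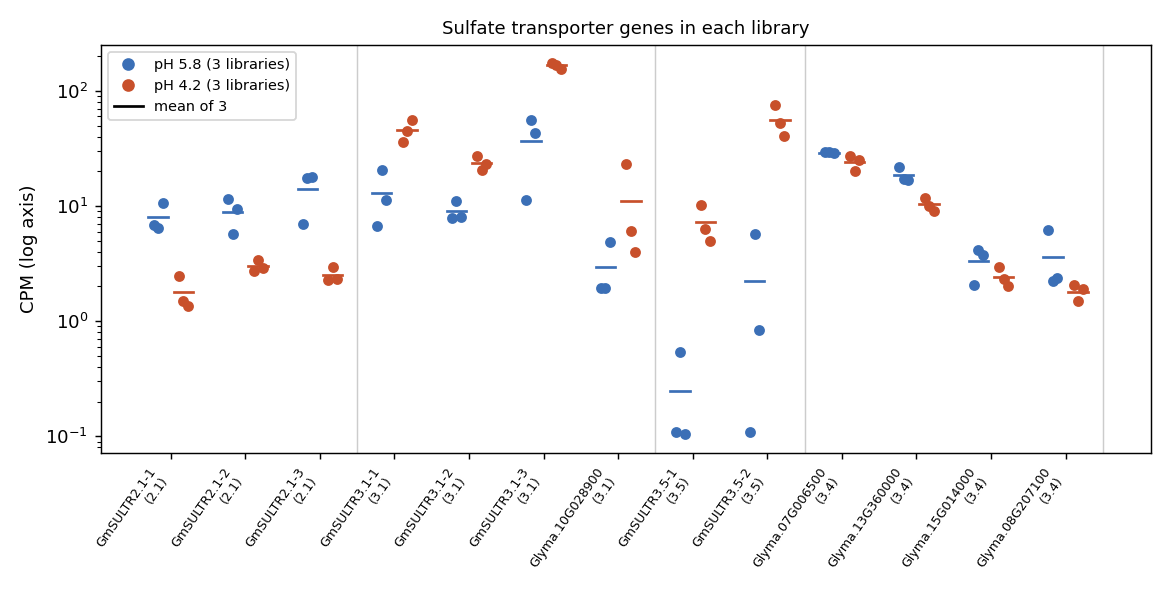
CPM of 13 SULTR genes (x axis, with their subgroup) in each library on a log y axis, control roots in blue and acid-treated roots in red, with the mean of 3 libraries as a line. The 3 GmSULTR2.1 genes are lower in every acid library, and the 5 GmSULTR3 genes higher in every acid library than in any control library. Of the unnamed genes, Glyma.10G028900 and Glyma.15G014000 overlap.

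In SULTR group 3, the SULTR3.1 genes had positive log2 fold changes in 4 of 4 cases, from 1.39 to 2.17. SULTR3.1 of Arabidopsis is a plastid transporter. GmSULTR3.1-2 (Glyma.02G145100) was at 7.92, 11 and 8.01 CPM in control and 27.1, 20.4 and 23.4 CPM in acid-treated roots. It was called higher, 2.62-fold, with a log2 fold change of 1.39 ± 0.23 (SE) and an adjusted p of 0.0445. The call held in leave-one-out fits only without control replicate 2, with an adjusted p of 0.0155, and the highest adjusted p was 0.197. With limma the adjusted p was 0.0536 at a pseudocount of 1 and 0.0602 at 0.1, so the call was lost.

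GmSULTR3.1-3 (Glyma.03G156700), the most abundant SULTR transcript in acid-treated roots, was at 11.3, 56.3 and 43.3 CPM in control and 174, 169 and 156 CPM in acid-treated roots. Its control libraries lay far apart, the acid libraries close together, and the log2 fold change of 2.17 ± 0.50 (SE) had an adjusted p of 0.12. GmSULTR3.1-1 (Glyma.19G159000) was at 6.73, 20.6 and 11.3 CPM in control and 36.2, 45.0 and 56.0 CPM in acid-treated roots (log2 fold change 1.83 ± 0.38, adjusted p = 0.095). Neither overlapped, DESeq2 called both higher, and without control replicate 2 edgeR did so too. The study chose both with DESeq2 on these same libraries, so the DESeq2 call is no separate evidence. Control replicate 2 was singled out on the same data. The fourth, Glyma.10G028900, which the study does not name, was at 1.95, 1.93 and 4.89 CPM in control and 23.2, 6.05 and 4.01 CPM in acid-treated roots. It overlapped, with a single high library, acid replicate 1 (log2 fold change 1.91 ± 0.69, adjusted p = 0.311).

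The SULTR3.5 genes had the highest fold changes of all tested members and were low in control roots. Both passed the filter on low counts only through the acid libraries, where they were high, so their being tested is no separate evidence. In Arabidopsis, SULTR3.5 has little transport activity alone and raises that of SULTR2.1 in root-to-shoot transport. GmSULTR3.5-1 (Glyma.09G188700) was at 0.109, 0.536 and 0.104 CPM in control, which is 7 counts in all, and at 10.2, 6.37 and 5.01 CPM in acid-treated roots, 195 counts. It was called higher, with a log2 fold change of 4.78 ± 0.61 (SE) and an adjusted p of 0.0205. Its counts were not whole in 1 library, so some reads were shared with other genes. The ratio of the scaled counts was 28.8, with a 95% interval of 13.7 to 72.5 that covers counting error only. It was also called by limma and the fit without a filter on low counts. DESeq2, with which the study chose it on these libraries, called it too. In leave-one-out fits its adjusted p ran from 0.00654 to 0.126, with the call kept only without acid replicate 3 or control replicate 2.

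GmSULTR3.5-2 (Glyma.07G088200) was at 0.109, 5.69 and 0.833 CPM in control and 75.5, 52.3 and 40.6 CPM in acid-treated roots. The acid libraries were all higher, by a log2 fold change of 4.66 ± 0.85 (SE, adjusted p = 0.0657), so edgeR did not call it. DESeq2 called it higher (adjusted p = 0.0126), and so did limma at a pseudocount of 1 (adjusted p = 0.0141) but not at 0.1. The study chose it with DESeq2 on these same libraries, so the DESeq2 call is no separate evidence. Its counts were not whole in 1 library. Control replicate 2 stood above the other control libraries, and without it the log2 fold change was 6.84 and the adjusted p 0.00358. As that library was singled out on these same data, the fit without it is no separate support. The ratio of the scaled counts, 1525 in acid-treated against 62 in control roots, was 25.4 with a counting interval of 19.7 to 33.3.

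The rest of group 3 went the other way or did not differ. The 4 SULTR3.4 genes, whose relatives in Arabidopsis and rice also act in phosphorus distribution, all had negative log2 fold changes. In 3 of them all acid libraries were below all control libraries, beside 9.25% of all genes tested. Glyma.07G006500, the most abundant, was at 29.2, 29.2 and 28.8 CPM in control and 27.3, 20.1 and 25.3 CPM in acid-treated roots, a log2 fold change of -0.26 ± 0.19 (SE, adjusted p = 0.646). Glyma.13G360000 was at 21.7, 17.1 and 16.9 CPM in control and 11.7, 10.1 and 9.13 CPM in acid-treated roots, a log2 fold change of -0.85 ± 0.21 (SE, adjusted p = 0.149). Glyma.08G207100 had the lowest estimate in group 3, -0.99 ± 0.48 (adjusted p = 0.485). None passed the test. As a set, SULTR3.4 summed to 27.1, 23.8 and 23.8 FPKM in control and 19.4, 15.4 and 16.9 FPKM in acid-treated roots. The 2 tested SULTR3.3 genes had log2 fold changes of -0.48 and 0.06.

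SULTR group 4 had no call. Glyma.02G095500 was at 26.5, 46.9 and 55.8 CPM in control and 55.9, 32.5 and 38.0 CPM in acid-treated roots (log2 fold change -0.03, 95% interval -0.75 to 0.69). Glyma.18G286000 was at 32.7, 45.6 and 68.4 CPM in control and 39.7, 32.2 and 28.8 CPM in acid-treated roots (log2 fold change -0.54, 95% interval -1.19 to 0.11). Both overlapped.

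Of the 40 assimilation genes, 33 were tested. edgeR called 0 of them, limma called 0 and DESeq2 called 2, both higher. At an unadjusted edgeR p-value under 0.05, 5 were higher and 0 lower, beside 11.8% of all genes in either direction. The median log2 fold change was 0.06, with a range of -0.82 to 1.92. All acid libraries were above all control libraries for 8 genes and below for 0, beside 7.17% and 9.25% of all genes.

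Of the first steps of the pathway, ATP sulfurylase and the more abundant of the 2 APS reductase members had estimates near 0. The more abundant ATP sulfurylase member, Glyma.20G151500, was at 82.6, 134 and 130 CPM in control and 132, 119 and 84.9 CPM in acid-treated roots, with a log2 fold change of -0.04 and a 95% interval of -0.68 to 0.59. Its counts were not whole in any of the 6 libraries, so reads were shared with other genes and its level is uncertain. The other, Glyma.13G051000, was far lower, with a mean of 5.76 CPM at pH 5.8 and of 5.02 CPM at pH 4.2. A gene outside the members, Glyma.10G242600, which carries the same KEGG term as both but is described only as a hypothetical protein, was more abundant, at 340, 310 and 405 CPM in control and 321, 263 and 232 CPM in acid-treated roots (log2 fold change -0.37 ± 0.26, adjusted p = 0.652). The more abundant APS reductase member, Glyma.15G108700, at a mean of 119 FPKM the most abundant member in control roots, was at 99.1, 369 and 200 CPM in control and 251, 216 and 229 CPM in acid-treated roots. Its control libraries lay on both sides of the acid libraries, so the log2 fold change of 0.06 has a 95% interval of -0.93 to 1.05. Glyma.07G261500, the other APS reductase member, was at 14.4, 24.7 and 22.4 CPM in control and 58.0, 27.5 and 21.8 CPM in acid-treated roots, and only acid replicate 1 stood far above (log2 fold change 0.80 ± 0.38, adjusted p = 0.469). Between these in level was Glyma.09G004400, no member because its description words the enzyme differently, at 86.0, 153 and 153 CPM in control and 156, 114 and 161 CPM in acid-treated roots, with overlap (log2 fold change 0.14 ± 0.29, adjusted p = 0.882).

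The 5 tested APS reductase-like genes, whose KEGG terms, where given, are those of protein disulfide isomerases, had log2 fold changes of -0.21 to -0.10. The highest of them by level were Glyma.06G103000 and Glyma.04G101300, at mean levels of 18.1 and 15.1 FPKM in control and 16.6 and 12.9 FPKM in acid-treated roots. The 4 tested APS kinase genes lay between -0.18 and -0.11, and their highest, Glyma.05G105300, had a mean of 8.89 ± 1.81 CPM (SD, n = 3) under control conditions and of 7.85 ± 1.93 CPM at pH 4.2. All 9 overlapped between the pH-treatments.

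**Figure D4:**
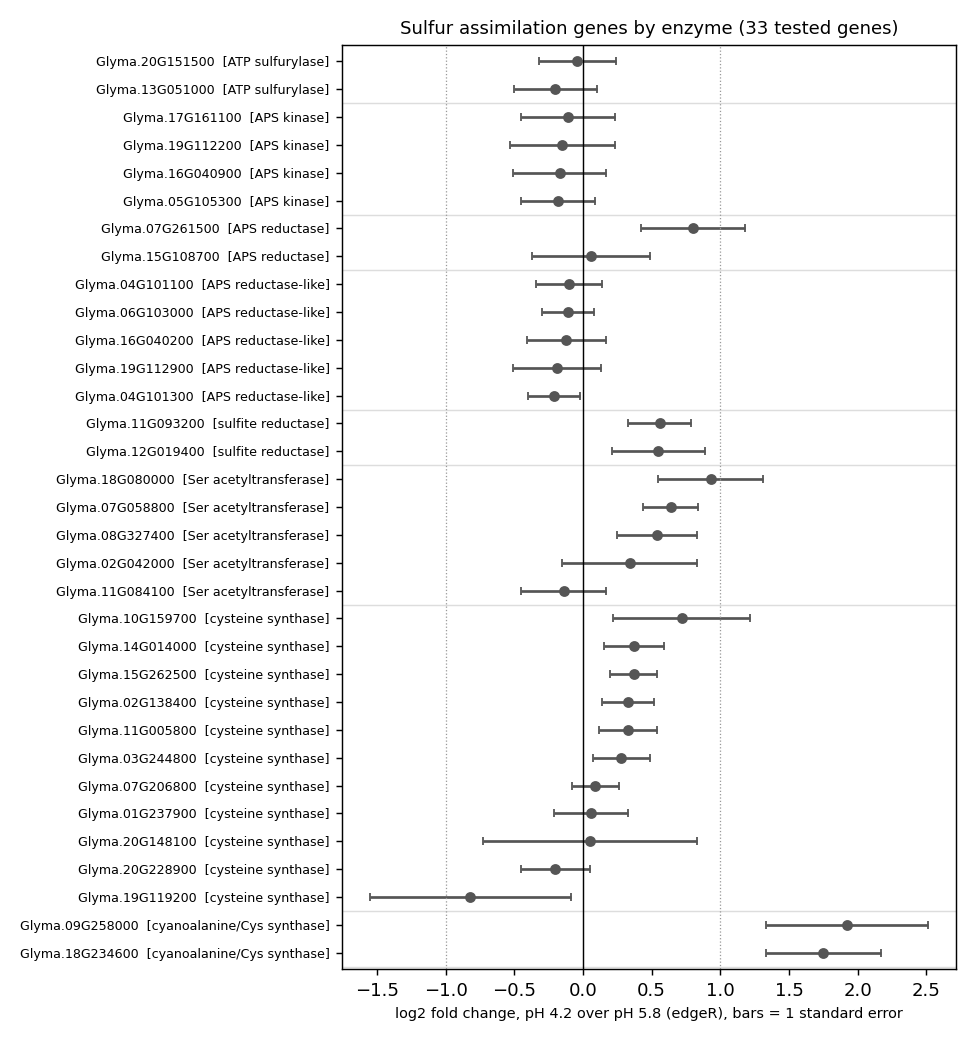
Log2 fold change of acid-treated over control roots (x axis, edgeR) for the 33 tested assimilation genes, grouped by enzyme on the y axis in the order of the pathway. Points are estimates, bars are 1 standard error and dotted lines mark a 2-fold change. No gene was called, and the pair with the KEGG term for cyanoalanine/cysteine synthase stands apart at 1.92 and 1.75.

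The later steps had mostly positive estimates, none past the test. The sulfite reductase gene Glyma.11G093200 was at 72.0, 101 and 73.9 CPM in control and 140, 108 and 117 CPM in acid-treated roots, without overlap (log2 fold change 0.56 ± 0.23, adjusted p = 0.389). Glyma.12G019400, the other sulfite reductase, overlapped at a log2 fold change of 0.55 ± 0.34. Together they summed to 41.5, 60.9 and 38.5 FPKM in control and 67.9, 66.0 and 70.7 FPKM in acid-treated roots, so the acid libraries were all higher.

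Among serine acetyltransferase genes, 4 of 5 tested had positive log2 fold changes. Glyma.18G080000, the most abundant, was at 24.6, 54.2 and 54.4 CPM in control and 122, 76.4 and 56.4 CPM in acid-treated roots. Its lowest acid library was just above its highest control library, and the log2 fold change was 0.93 ± 0.38 (SE, adjusted p = 0.376). Glyma.07G058800 was at 10.2, 11.9 and 11 CPM in control and 16.3, 19.4 and 15.9 CPM in acid-treated roots, a log2 fold change of 0.64 ± 0.20 (SE, adjusted p = 0.232). The second most abundant, Glyma.11G084100, was at 22.2, 53.2 and 30.8 CPM in control and 31.6, 29.6 and 35.2 CPM in acid-treated roots and overlapped.

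Cysteine synthase (O-acetylserine (thiol) lyase) makes cysteine, the end product of the pathway. Leaving aside the cyanoalanine pair, 9 of 11 tested genes had positive log2 fold changes, with a range of -0.82 to 0.72. Glyma.03G244800, named OAS-TL1 in RefSeq, was the most abundant, at 63.0, 76.9 and 83.2 CPM in control and 101, 82.8 and 86.5 CPM in acid-treated roots. Glyma.02G138400 was at 64.8, 81.8 and 70.4 CPM in control and 90.6, 92.4 and 90.5 CPM in acid-treated roots, without overlap (log2 fold change 0.33 ± 0.19, adjusted p = 0.567). The lowest estimate was that of Glyma.19G119200, -0.82 ± 0.73, at under 3 CPM in every library. This gene is described as a probable S-sulfocysteine synthase and is counted here because of those words and its KEGG term. The 12 genes summed to 206, 219 and 218 FPKM in control and 249, 263 and 238 FPKM in acid-treated roots, 1.17 times the control mean.

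The 2 genes with the KEGG term for cyanoalanine/cysteine synthase had the largest estimates among assimilation genes. Glyma.09G258000 is also described as bifunctional, while Glyma.18G234600 is described only as a cysteine synthase. Cyanoalanine synthase detoxifies the cyanide made with ethylene, using cysteine. Glyma.09G258000 was at 10.5, 56.7 and 21.1 CPM in control and 144, 132 and 58.8 CPM in acid-treated roots, a log2 fold change of 1.92 ± 0.59 (SE, adjusted p = 0.231). Glyma.18G234600 was at 25, 18 and 15.7 CPM in control and 106, 61.3 and 30.6 CPM in acid-treated roots, a log2 fold change of 1.75 ± 0.42 (SE, adjusted p = 0.135). Neither overlapped, and these were the 2 genes that DESeq2 called. Without control replicate 2, edgeR called Glyma.09G258000 higher (adjusted p = 0.0276). Reads of both genes were divided between genes by the authors' counting, so their levels are uncertain.

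Neighbouring pathways were counted from 59 further genes found by their descriptions, of which 49 were tested. edgeR called 0, limma called 0 and DESeq2 called 1, and at an unadjusted edgeR p-value under 0.05 there were 1 higher and 3 lower, beside 11.8% of all genes in either direction and 1.22% higher and 1.55% lower by DESeq2. Their median log2 fold change was 0.0.

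The gene that DESeq2 called was Glyma.12G015700, a gamma-glutamylcyclotransferase, an enzyme of glutathione breakdown. It was at 26.3, 19.3 and 30.5 CPM in control and 11.5, 12.6 and 8.46 CPM in acid-treated roots, without overlap, with a log2 fold change of -1.22 ± 0.25 (SE) and an adjusted p of 0.0911 by edgeR. Of the glutathione synthesis genes, 4 of 4 tested had positive log2 fold changes, from 0.16 to 0.35, and the glutamate-cysteine ligase gene Glyma.05G207600 was at 43.5, 51.2 and 45.9 CPM in control and 64.6, 58.3 and 56.2 CPM in acid-treated roots (adjusted p = 0.513).

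The markers and regulator of sulfur deficiency had no positive estimate among 4 tested genes. Glyma.15G031800, described as ETHYLENE INSENSITIVE 3-like 3, whose Arabidopsis relative SLIM1 is the main regulator of the sulfur deficiency response, was at 26.5, 23.5 and 33.9 CPM in control and 22.1, 16.7 and 17.0 CPM in acid-treated roots (log2 fold change -0.59 ± 0.22, adjusted p = 0.323). The lowest estimate was that of Glyma.08G355900, a SULFUR DEFICIENCY-INDUCED 1-like gene, -0.74 ± 0.65, at under 2 CPM in every library.

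The other lists are given by their most abundant gene and their largest change. S-adenosylmethionine synthase gene Glyma.15G190500 was at a mean of 663 ± 200 CPM (SD, n = 3) at pH 5.8 and of 746 ± 78.9 CPM at pH 4.2, and Glyma.10G144300 of the same family had a log2 fold change of -1.15 ± 0.52 (adjusted p = 0.446). Of the genes that handle sulfite and sulfated compounds, the sulfotransferase gene Glyma.13G191400 was at 6.95, 36.6 and 19.7 CPM in control and 49.7, 42.4 and 36.8 CPM in acid-treated roots (log2 fold change 1.03 ± 0.48, adjusted p = 0.468). The sulfite oxidase gene Glyma.19G071800 had a log2 fold change of 0.23 ± 0.21.

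Molybdate transporters are relatives of SULTR proteins. The molybdate transporter 2 gene Glyma.08G208700 was at a mean of 112 ± 39.6 CPM (SD, n = 3) at pH 5.8 and of 108 ± 22.9 CPM at pH 4.2, and Glyma.14G130000 had a log2 fold change of 0.83 ± 0.43 (adjusted p = 0.521). Among sulfurtransferase genes, Glyma.15G260300 had a log2 fold change of -0.38 ± 0.27 and Glyma.01G165300 one of 0.67 ± 0.23 (adjusted p = 0.286). The cysteine desulfhydrase genes Glyma.20G092400 and Glyma.10G137700 had log2 fold changes of 0.14 ± 0.23 and 0.50 ± 0.37.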

How the data were processed

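RNA of whole soybean roots was sequenced in 6 libraries, 3 at pH 5.8 and 3 at pH 4.2, with groups taken from the labelled pH. The authors mapped reads to the build Williams82.a2.v1 with HISAT, added predicted transcripts, mapped again with Bowtie2, and deposited an RSEM expected count, an FPKM value and a gene length for each gene and library. Tool versions are not given in the sources used here. Between 85.7% and 87.2% of the expected counts in a library were whole (tolerance 0.001), and the rest are reads divided between genes. Genes absent from a library's list were given a count of 0. Coordinates and promoter and protein sequences were not used here.

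Expected counts were rounded and tested with edgeR 4.0.16 in R 4.3.3 (filterByExpr, TMM, robust quasi-likelihood fit, Benjamini-Hochberg adjustment over all genes tested), which was first tested on simulated data. A log2 fold change above 0 means a higher level at pH 4.2. A standard error is the size of the log2 fold change over the square root of F. CPM values use TMM library sizes, and FPKM was used to compare levels between genes. The authors used DESeq2, which was an alternative here (DESeq2 1.42.0), beside RLE size factors, no filter, a mean count of at least 50, limma-trend on FPKM (limma 3.58.1, log2 scale, with a pseudocount of 1 or 0.1), where a change of a low gene is understated, a replicate block, each library left out and unadjusted p-values. Where the text names limma with no pseudocount, the statement held with both.

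The members and lists were chosen with earlier results of these data known. A SULTR group is the first number of a 2-part name. The 5 genes with a 1-number name (high affinity sulfate transporter 2, low affinity sulfate transporter 3) took the group of their KEGG term, a departure from the written rule, which was run as an alternative together with members widened by KEGG terms. Both were added after the data were seen. RefSeq symbols were found for 48 of the 70 members, by protein accession. Named genes are the 8 GmSULTR genes, every called member, in each family the 2 with the highest mean FPKM and those with the largest and smallest log2 fold change, and in each further list the most abundant and the most changed gene. Glyma.10G028900, Glyma.13G360000, Glyma.18G234600, Glyma.07G058800, Glyma.15G014000, Glyma.15G031800, Glyma.15G052000, Glyma.10G242600 and Glyma.09G004400 were named after their values were seen where the rule did not already name them. Exact permutation of 3 against 3 libraries cannot go below p = 0.1, so single values have no test of their own. qRT-PCR was not analysed here. Tables were made with pandas 2.3.3 and scipy 1.17.1 under Python 3.11.15, plots with matplotlib 3.10.9.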

Additional observations from a re-analysis of the deposited data

How the results depend on the processing

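Of 440 values of the 32 named member genes under alternatives, 380 kept their direction and their side of the threshold. Members called higher numbered 7 with DESeq2, 8 at unadjusted p, 1 with a mean count of at least 50, 1 with limma-trend on log2(FPKM + 0.1), 1 with the replicate block and 0 to 6 with 1 library left out, and members called lower numbered 3 with DESeq2, 3 at unadjusted p, 2 without a filter, 0 with limma-trend at either pseudocount, 0 with the replicate block and 0 to 3 with 1 library left out. Same-numbered libraries did not deviate together (correlations of -0.135, -0.0543 and -0.373). With 3 libraries per pH these correlations cannot decide whether the replicate numbers pair the samples. The block left 61 of all genes called instead of 187. The group 1 median was -0.16 with limma-trend on log2(FPKM + 1) and -0.61 to -0.14 with 1 library left out. The group 2 median was -2.03 with a mean count of at least 50, which keeps fewer genes, and -1.26 to -0.31 with 1 library left out. The group 3 median was 0.09 with DESeq2, 0.10 without a filter, which both add genes of few counts, 1.81 with a mean count of at least 50, -0.10 with groups from the first number of the description and 0.45 to 0.87 with 1 library left out. The assimilation median was 0.31 with a mean count of at least 50, 0.24 with limma-trend on log2(FPKM + 0.1), 0.25 with the replicate block and 0.05 to 0.21 with 1 library left out. The group 4 median stayed between -0.52 and -0.01, and the ratios of summed group levels ran from 0.749 to 1.05 (group 1), 0.369 to 0.464 (group 2), 2.53 to 3.17 (group 3) and 0.681 to 0.988 (group 4) with 1 library left out. The sign changed for 21 values. Glyma.02G095500 was at 0.01 without a filter, and Glyma.08G180400 at 0.07 with limma-trend on log2(FPKM + 0.1) and 0.17 with the block. The other changes of sign came with 1 library left out, where log2 fold changes ran from -0.29 to 0.20 for Glyma.02G095500, -0.95 to 1.03 for Glyma.08G180400, -0.21 to 0.25 for Glyma.08G171100, -0.24 to 0.12 for Glyma.20G151500, -0.29 to 0.64 for Glyma.15G108700, -0.34 to 0.01 for Glyma.13G051000, -0.02 to 0.71 for Glyma.18G169000, -0.39 to 0.28 for Glyma.11G084100, -0.40 to 0.0 for Glyma.05G105300 and -0.40 to 0.14 for Glyma.17G161100. The cause of these moves was not tested beyond what a setting's own construction gives. With 3 libraries per pH, genes that missed the threshold are not shown to be alike at both pH-treatments.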
